A study of Homo sapiens with 40 samples.

Results

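Transcript changes of 10 genes of the cyclic AMP pathway were followed: the adenylyl cyclases ADCY3, ADCY6, ADCY7 and ADCY9, the protein kinase A catalytic subunits PRKACA and PRKACB, and the regulatory subunits PRKAR1A, PRKAR1B, PRKAR2A and PRKAR2B. They were taken by symbol from the authors' deposited table and are 10 of the 19280 genes that have a value in at least 1 cell line. The set was chosen by measured values, the log2 fold changes of ADCY3 in all lines and of PRKACB in NCIH520, so these are given as descriptions without a test. The data come from 40 RNA-seq libraries of 10 established human non-small cell lung cancer lines, each given either GSK3368712 or its solvent dimethyl sulfoxide (DMSO) as control. GSK3368712 inhibits the type I enzymes that methylate arginine in proteins. Each arm of a line had 2 libraries, and the labels do not say whether these were separate cultures, so p-values within a line reflect only the spread between libraries. The sample titles end in D5 and the row labels carry a number without a unit, so treatment time and dose are not spelled out.

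The row labels assign EBC1, LK2, NCIH226, NCIH520, SKMES1 and SW900 to squamous cell carcinoma (LUSC) and NCIH1563, NCIH1975, NCIH522 and PC9 to adenocarcinoma (LUAD). The keratins KRT8, KRT18 and KRT19 were listed in 10 of 10 lines, and 3 to 5 of 5 epithelial markers per line. Of 4 leukocyte markers, LYZ was listed in 1 line and the other 3 in 0 lines, and 1 or 2 of 4 fibroblast and endothelial markers were listed per line. Markers of the subtypes did not separate the labels. Squamous markers numbered 1 to 3 of 5 in LUSC and 0 to 3 of 5 in LUAD lines, and adenocarcinoma markers 0 to 4 of 5 in LUSC and 0 to 3 of 5 in LUAD lines. The summed mean normalized counts lay between 57647556 and 108557964 per line, and the table gives 1 value per gene and line, so the spread between libraries appears only as the standard error (SE) of a fold change.

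Adenylyl cyclases sit in the cell membrane and make cyclic AMP from ATP when stimulatory G proteins are activated by receptors. Cyclic AMP binds the regulatory subunits of protein kinase A, which then free the catalytic subunits to phosphorylate their targets, among them the transcription factor CREB at cyclic AMP response elements of promoters. Phosphodiesterases degrade cyclic AMP, and anchoring proteins hold the kinase at particular sites of the cell. In airway epithelium the pathway is best known for its control of chloride secretion, ciliary beating and barrier function.

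Among the cyclases, ADCY3, an isoform responsive to calcium and calmodulin that is known from olfactory and primary cilia, had negative log2 fold changes in 10 of 10 lines. In the LUSC lines the authors' deposited table gives −2.05 in SW900, −1.69 in EBC1, −1.49 in SKMES1, −1.21 in NCIH226, −1.02 in LK2 and −0.91 in NCIH520. In the LUAD lines the authors' deposited table has −1.81 in NCIH1975, −1.19 in PC9, −1.03 in NCIH1563 and −0.55 in NCIH522. The treated level was thus between 24.1% of DMSO in SW900 and 68.3% in NCIH522, and the ranges of the subtypes overlapped. The mean was −1.29 ± 0.46 (SD, n = 10 lines), which places ADCY3 at rank 15 from the lowest among the 9339 genes with values in every line. Its mean was −1.40 ± 0.43 over 6 LUSC lines and −1.14 ± 0.52 over 4 LUAD lines. The authors called it lower (DESeq2 adjusted p at most 0.05) in 9 lines, all but NCIH522, where 0.75% of listed genes were called lower. Over all lines and genes, 13.8% of entries were called lower, 13.7% higher and 27.5% in either direction. The authors' deposited SE of ADCY3 ranged from 0.079 in LK2 to 0.275 in PC9.

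ADCY3 (ENSG00000138031) lies on chromosome 2 from 24819169 to 24919839 on the minus strand in GRCh38 (GENCODE 29). Its gene body overlaps CENPO, a centromere protein gene on the opposite strand, by 3208 bases. CENPO stood at 0.01 ± 0.25 (SD, n = 10 lines), from −0.41 to 0.40, and was called lower in 1 line and higher in 1 line. AC012073.1, an antisense transcript that overlaps ADCY3 by 1108 bases, had negative values in 10 of 10 lines with a mean of −1.24 ± 0.82 (SD, n = 10) and was called lower in 5. In the authors' deposited table it reached −3.02 in NCIH1563 and −0.25 in NCIH520. The strand setting of the quantification is not given in the sources used here, although the library kit keeps the strand, so it is not known whether reads of ADCY3 and of its antisense partner were counted apart. In SW900 AC012073.1 stood at −0.38 and was not called, while ADCY3 had its lowest value there, −2.05, in the authors' deposited table. The mean normalized count in SW900 was 716 for ADCY3 and 205 for AC012073.1 in the authors' deposited table.

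The sequence before the ADCY3 start is shown because this gene leads the set. RefSeq (GRCh38.p14) gives 2 starts for ADCY3, and the window printed is the 250 bases before the outer start, chr2:24920238-24920487 on the minus strand. Capitals mark the GC box GGGCGG on either strand.
ADCY3 promoter: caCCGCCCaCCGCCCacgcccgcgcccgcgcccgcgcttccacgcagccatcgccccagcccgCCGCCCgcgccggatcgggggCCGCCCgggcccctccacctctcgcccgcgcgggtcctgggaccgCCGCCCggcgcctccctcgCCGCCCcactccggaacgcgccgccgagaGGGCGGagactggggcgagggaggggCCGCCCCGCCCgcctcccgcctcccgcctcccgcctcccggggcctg
This window held 9 matches to GGGCGG, some overlapping, against at least 1 match in 42.6% of 35116 RefSeq promoter windows of the same length. Its GC content was 85.2%, and the median over all windows was 58.0%. It held 0 matches to the full cyclic AMP response element TGACGTCA, which 1.65% of windows hold, and 0 to the shorter element TGACG, which 21.2% hold. The window of the other start, chr2:24919586-24919835 on the minus strand, held 1 match to TGACG, at position −248 from that start, and 2 to GGGCGG. A match to such letters describes the sequence only.

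**Figure D1:**
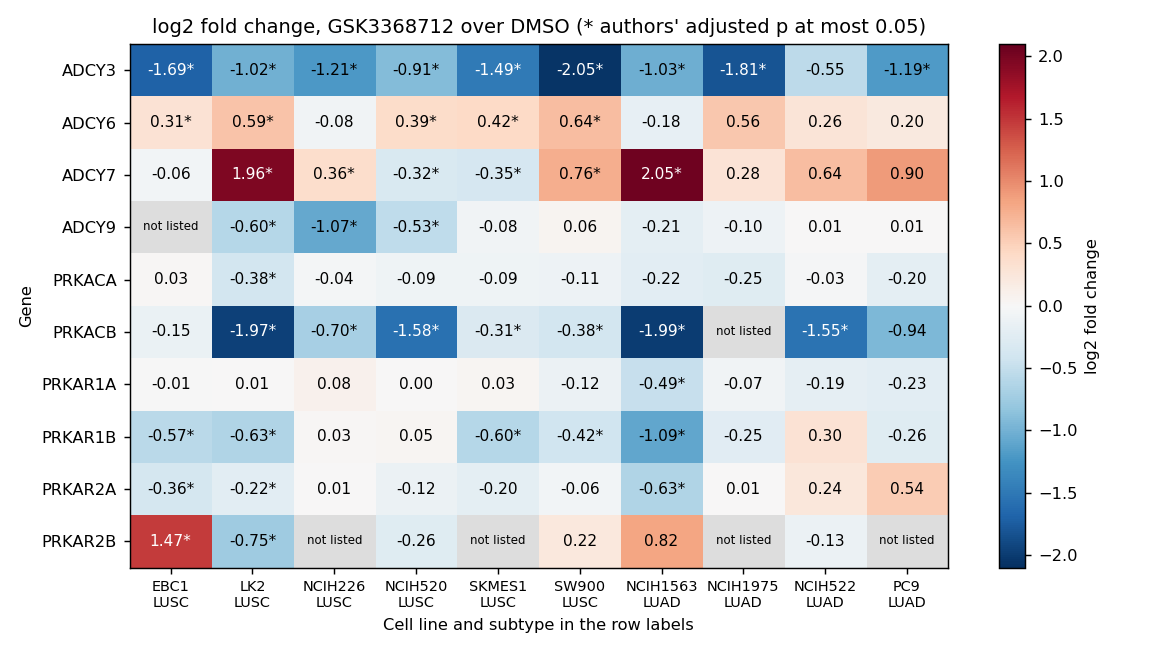
log2 fold changes of the 10 genes (rows) in the 10 lines (columns), GSK3368712 over DMSO, from blue (lower) to red (higher). Asterisks mark an authors' adjusted p of at most 0.05 and grey cells are not listed. The ADCY3 row is blue in every line, from −0.55 to −2.05, and the PRKACB row in each of 9 lines, while ADCY7 ranges from −0.35 to 2.05.

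ADCY6, a cyclase inhibited by calcium, rose across the lines. Its values in the authors' deposited table were 0.64 in SW900, 0.59 in LK2, 0.42 in SKMES1, 0.39 in NCIH520, 0.31 in EBC1 and −0.08 in NCIH226. For the LUAD lines the authors' deposited table shows 0.56 in NCIH1975, 0.26 in NCIH522, 0.20 in PC9 and −0.18 in NCIH1563. Of the 10 values 8 were positive, and 5 LUSC lines but 0 LUAD lines carried a call. The SE of ADCY6 was 0.079 to 0.123 in the LUSC and 0.179 to 0.3 in the LUAD lines. Of all listed genes, 11.4% (NCIH520) to 23% (EBC1) were called higher in the LUSC lines. In the LUAD lines the share was 0.912% (NCIH522) to 23.3% (NCIH1563), so the call counts are not comparable between subtypes. The mean was 0.31 ± 0.27 (SD, n = 10; limma adjusted p = 0.021), in a test that called 21.6% of 9339 genes in either direction and 9.5% higher. Leaving out LK2 or SW900 ended the call (limma adjusted p = 0.0525 and 0.0557), and so did leaving out NCIH1975, NCIH522 and PC9 together (0.091), the lines with the fewest calls, or NCIH520 with values in at least 7 of the other lines (0.0543). The difference LUAD minus LUSC was −0.17 (limma adjusted p = 0.999). The fold change of ADCY3 minus that of ADCY6 was below 0 in 10 of 10 lines, at −1.61 ± 0.63 (SD, n = 10), which is a description because ADCY3 chose the set.

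ADCY7, which is stimulated by G protein beta-gamma subunits and is prominent in blood cells, had the widest spread among the cyclases. The authors' deposited table lists it at 2.05 in NCIH1563 and 1.96 in LK2, at 0.90 in PC9, 0.76 in SW900 and 0.64 in NCIH522. The remaining values of the authors' deposited table were 0.36 in NCIH226, 0.28 in NCIH1975, −0.06 in EBC1, −0.32 in NCIH520 and −0.35 in SKMES1. It was thus called higher in 4 lines, LK2, NCIH226, SW900 and NCIH1563, and lower in NCIH520 and SKMES1. Lines differed by more than the SEs, with Cochran's Q at 273.51 and 96.7% of the variation between lines beyond the SEs (adjusted p = 3.22e-51). By the same test 65.9% of the 9339 genes differed between lines, and the median share of variation beyond the SEs was 63.5%. Across lines ADCY7 averaged 0.62 ± 0.84 (SD, n = 10) and did not pass (limma adjusted p = 0.0624). It passed without NCIH520 or without SKMES1 (limma adjusted p = 0.0438 and 0.0423).

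The ADCY7 fold changes ran opposite to the level of its transcript in the lines. Levels are mean normalized counts scaled to the same total in each line (CPM) over both arms. The lowest, 5.17 CPM, was in LK2, followed by 13.8 in NCIH1563, and the highest were 111 in SKMES1 and 171 in NCIH520. Pearson's r between the log2 level and the log2 fold change was −0.92 and Spearman's rho −0.95 over 10 lines, and r was −0.91 without LK2 and NCIH520, the lines farthest from the median level. Over the 9339 genes the same r had a median of −0.09 and a 5th percentile of −0.63. Level and fold change come from the same libraries, and the level includes the treated arm.

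ADCY9, an isoform that forskolin barely activates, was listed in 9 lines, and its calls were all in the lower direction. In the authors' deposited table it stood at −1.07 in NCIH226, −0.60 in LK2 and −0.53 in NCIH520, each called lower. The remaining 6 lines lay between −0.21 in NCIH1563 and 0.06 in SW900 and were not called. The mean was −0.28 ± 0.38 (SD, n = 9 lines; limma adjusted p = 0.12, among 12111 genes with values in at least 7 lines, of which 20.2% passed). Its r of log2 level with log2 fold change was 0.71 and rho 0.75 over 9 lines (r = 0.67 without LK2 and SW900), opposite in sign to that of ADCY7.

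**Figure D2:**
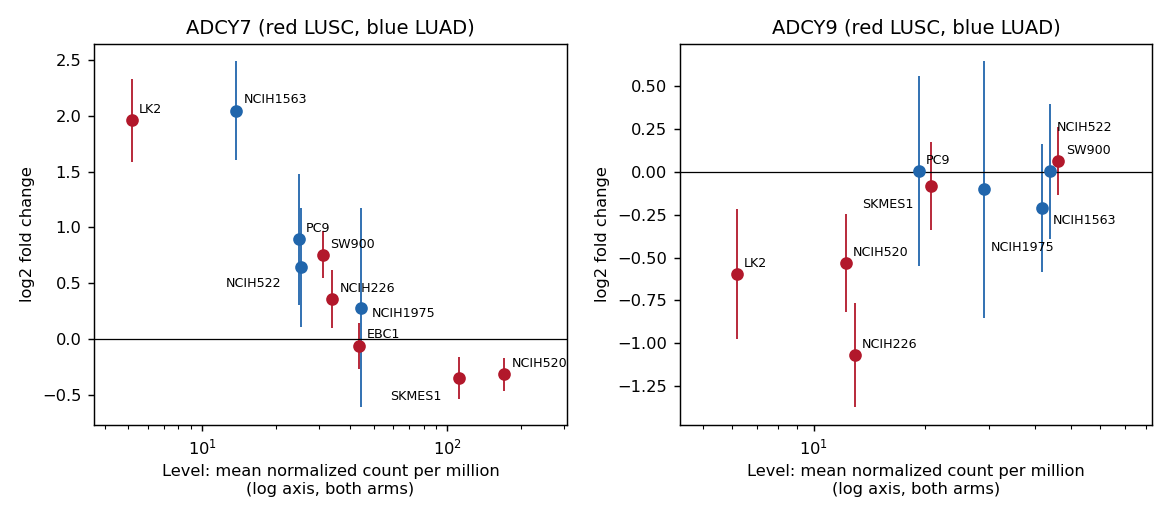
log2 fold change of ADCY7 (left) and ADCY9 (right) against the transcript level in each line, in CPM over both arms on a log axis. Points are lines, red LUSC and blue LUAD, with 95% intervals from the deposited SE. ADCY7 runs from 1.96 at the lowest level (LK2) to −0.32 at the highest (NCIH520), and the values of ADCY9 below −0.5 belong to its 3 lowest levels.

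Among the 4 chosen cyclases, ADCY3 was a large part of the transcripts in DMSO and a smaller one with GSK3368712. Levels of the arms were rebuilt from the mean count and the fold change and divided by the longest transcript's length. They rest on the direction read from the row labels, and with the ratio turned the values of the arms would exchange, here and for the kinase subunits. ADCY3 then made up between 17.3% (SW900) and 67.9% (LK2) of the summed level of the chosen cyclases in DMSO. Its median share was 39.6% in DMSO and 19.7% with GSK3368712. The median share of ADCY6 went from 23.3% to 41.2% and that of ADCY7 from 18.2% to 27.1%. In EBC1 the sum holds 3 of the chosen cyclases, since ADCY9 is not listed there. The summed level had a log2 ratio of −0.29 ± 0.27 (SD, n = 10), from −0.72 in EBC1 to 0.28 in SW900, and was below 0 in 9 lines. Over the 9 lines that list all 4, the ratio was −0.24 ± 0.23 (SD, n = 9), with its lowest value, −0.55, in SKMES1, and the median share of ADCY3 was 36.1% in DMSO and 18.5% with GSK3368712. This sum includes ADCY3 and is a description. ADCY1, a calmodulin-stimulated cyclase outside the chosen set, was left out of these shares and sums. It was listed in 7 lines, with a mean normalized count from 852 in SKMES1 to 7020 in EBC1 in the authors' deposited table. Its fold changes ran from −0.30 to 1.15 with a mean of 0.33 ± 0.51 (limma adjusted p = 0.206). ADCY2, ADCY4, ADCY5, ADCY8 and ADCY10 were not listed in any line.

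Of the catalytic subunits, PRKACB stood below 0 in all 9 lines with a value for it. The authors' deposited table gives −1.97 in LK2, −1.58 in NCIH520, −0.70 in NCIH226, −0.38 in SW900, −0.31 in SKMES1 and −0.15 in EBC1. In LUAD lines the authors' deposited table has −1.99 in NCIH1563, −1.55 in NCIH522 and −0.94 in PC9, and NCIH1975 does not list the gene. The 9 values divided into 4 at or below −1.55, which kept between 25.2% and 34.1% of the DMSO level, and 5 between −0.94 and −0.15. In NCIH520, the value for which the gene was chosen, the SE was 0.109 and 12.3% of listed genes were called lower. In the 8 other lines PRKACB was below 0 in 8 of 8 and called lower in 6, and averaged −0.997 ± 0.75 (SD, n = 8). The test on lines without NCIH520 gave a limma adjusted p of 0.0138 for PRKACB, among 11561 genes with values in at least 7 of those lines, of which 8.92% were lower.

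PRKACB (ENSG00000142875) lies on chromosome 1 from 84078062 to 84238498 on the plus strand. No listed gene overlapped it, and AL359504.2, a non-coding gene on the opposite strand 131 bases away, was below 0 in 5 of the 5 lines that list it, at −0.62 ± 0.19 (SD, n = 5), and was called lower in 1. RefSeq gives 5 starts for PRKACB, and the table sums them into 1 gene. The window before the outermost start, chr1:84077829-84078078 on the plus strand, is shown for comparison with that of ADCY3. Its first bases overlap AL359504.2. Capitals mark GGGCGG and TGACG on either strand.
PRKACB promoter: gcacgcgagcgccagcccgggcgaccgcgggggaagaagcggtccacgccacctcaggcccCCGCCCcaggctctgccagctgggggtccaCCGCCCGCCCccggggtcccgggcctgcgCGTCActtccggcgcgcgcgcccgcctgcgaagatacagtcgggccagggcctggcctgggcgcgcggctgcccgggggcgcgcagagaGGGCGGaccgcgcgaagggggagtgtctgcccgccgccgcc
It held 4 matches to GGGCGG and 1 to TGACG, at position −130 from the start, with a GC content of 80.8%. GC content over the 5 PRKACB windows ranged from 30.4% to 80.8%, so its starts differ in base composition, and 1 of the 5 held a GC box. For ADCY3 both windows were GC-rich, at 78.0% and 85.2%.

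PRKACA, the more abundant catalytic subunit in most lines, had smaller fold changes. Its values in the authors' deposited table ran from −0.38 in LK2, the single call, to 0.03 in EBC1, and 9 of 10 were negative. The mean was −0.14 ± 0.12 (SD, n = 10; limma adjusted p = 0.115). An ordinary one-sample test and a random-effects analysis with the authors' SEs brought it past the threshold (adjusted p = 0.0381 and 0.0157). PRKACA did not differ between lines beyond the SEs by Cochran's Q (15.32, adjusted p = 0.112). Its neighbours upstream and downstream on the same strand, the histone chaperone gene ASF1B and SAMD1, stood at −0.67 ± 0.37 and −0.24 ± 0.25 (SD, n = 10). PRKACB minus PRKACA was below 0 in 9 of 9 lines, at −0.93 ± 0.65 (SD, n = 9) with a range from −1.77 to −0.17. This includes NCIH520, whose PRKACB value chose the gene, and is a description.

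Per length, PRKACB made up a median of 25.6% of the summed catalytic transcripts in DMSO and 12.2% with GSK3368712 over the 9 lines. SKMES1 was the single line where PRKACB exceeded PRKACA, at 62.6% in DMSO and 59.0% with the compound. In LK2 the share went from 29.4% to 12.2% and in NCIH520 from 21.5% to 8.92%. The summed level of PRKACA and PRKACB had a log2 ratio of −0.25 ± 0.18 (SD, n = 10), from −0.70 in LK2 to −0.04 in EBC1, and PRKACA alone stands for NCIH1975. These shares and this sum include the PRKACB value of NCIH520 and are descriptions. PRKX, a related kinase that also binds regulatory subunits, rose by 0.33 ± 0.18 (SD, n = 10; limma adjusted p = 0.00444) and was positive in 10 of 10 lines, with 3 calls. PRKACG was not listed in any line.

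**Figure D3:**
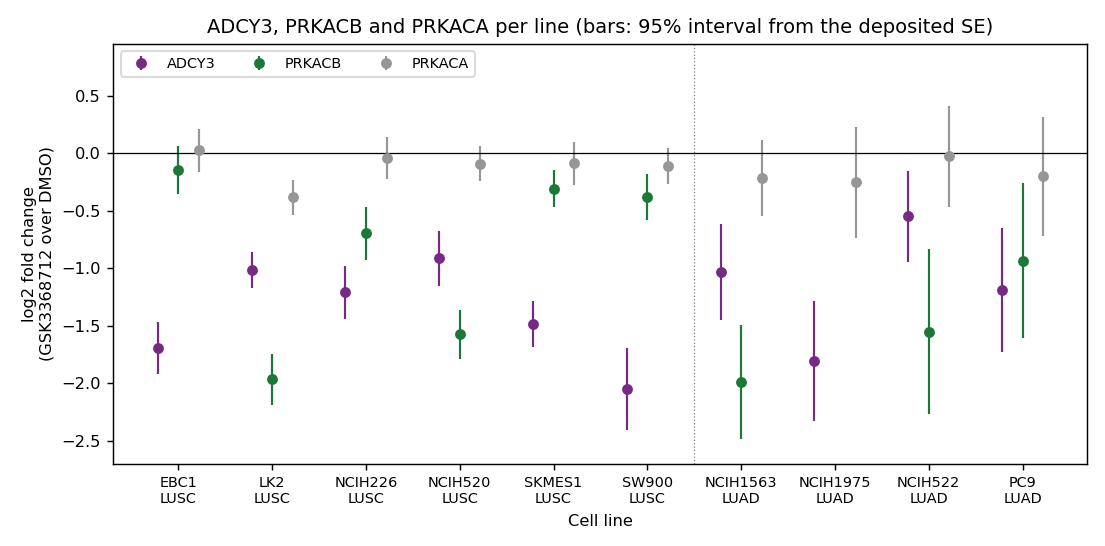
log2 fold change of ADCY3 (purple), PRKACB (green) and PRKACA (grey) in each line, with 95% intervals from the deposited SE. ADCY3 and PRKACB lie below 0 in every line that lists them, PRKACA lies near 0, and SW900 and EBC1, which have the lowest ADCY3 values among the 9 lines that list PRKACB, have PRKACB values of −0.38 and −0.15.

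Among the 9 lines that list both genes, those with the lowest ADCY3 values were not those with the lowest PRKACB values. Over these lines, Pearson's r between their log2 fold changes was −0.79 and Spearman's rho −0.78, and r was −0.90 over 7 lines without SW900 and NCIH522, the extremes of ADCY3. EBC1, with −1.69 for ADCY3, had −0.15 for PRKACB, while NCIH522, with −0.55 for ADCY3, had −1.55 for PRKACB in the authors' deposited table. Both values of a line come from the same libraries. The r includes the values that chose the set and is a description. With the other 8 members, r of ADCY3 lay between −0.47 (PRKAR2B, 6 lines) and 0.32 (PRKAR1B, 10 lines). That of PRKACB lay between −0.66 (ADCY7, 9 lines) and 0.63 (PRKACA, 9 lines). How many of all genes reach so negative an r was not counted. The genes whose fold changes were most like those of ADCY3 over 10 lines were NDOR1 (r = 0.91), PFDN6 (0.90), HGH1 (0.88), LRRC45 (0.88) and CCDC137 (0.87). Most like PRKACB over 9 lines were EPB41L1 (r = 0.97), BRMS1L (0.96), SRGAP2B (0.95), MKRN1 (0.92) and FAM45A (0.92). These are the highest of 9055 and 9056 genes compared, picked for their r, and were not tested. Means over 10 lines of the genes most like ADCY3 were all negative, from −0.56 (LRRC45) to −0.03 (CCDC137). Among those most like PRKACB, EPB41L1 and MKRN1 had positive means of 0.46 and 0.23. The others lay between −0.07 (FAM45A) and −0.04 (SRGAP2B). A like pattern over lines thus did not always mean a like direction.

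Among the regulatory subunits, PRKAR1A, the main type I subunit, stood near 0 in the LUSC lines. Its values in the authors' deposited table lay between −0.12 and 0.08 in the LUSC lines, and were −0.49 in NCIH1563, −0.23 in PC9, −0.19 in NCIH522 and −0.07 in NCIH1975. NCIH1563 alone was called. The mean was −0.10 ± 0.17 (SD, n = 10; limma adjusted p = 0.322), and LUAD minus LUSC was −0.25 (limma adjusted p = 0.947). Of the members with RefSeq windows (8 of 10; ADCY6 and ADCY9 are not among them), PRKAR1A was the single gene with a full cyclic AMP response element, in 1 of its 5 windows. The 30 bases around it, chr17:68512370-68512399 on the plus strand, are shown with the element in capitals, at position −49 from that start, because this is the element through which the pathway acts on promoters.
PRKAR1A element: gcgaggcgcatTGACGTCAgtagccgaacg
Neither ADCY3 nor PRKACB held the full element in any window.

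PRKAR1B, the type I subunit best known from brain, was called lower in 5 lines. In the authors' deposited table it stood at −1.09 in NCIH1563, −0.63 in LK2, −0.60 in SKMES1, −0.57 in EBC1 and −0.42 in SW900, all called lower. The uncalled values of the authors' deposited table were −0.26 in PC9, −0.25 in NCIH1975, 0.03 in NCIH226, 0.05 in NCIH520 and 0.30 in NCIH522. The mean was −0.34 ± 0.41 (SD, n = 10), just past the threshold (limma adjusted p = 0.0495). That call was lost in 7 of 10 fits that left out a line (limma adjusted p from 0.0212 to 0.107), with values in at least 7 lines (0.0609) and with an ordinary test (0.0955). Lines differed beyond the SEs (Cochran's Q = 62.98, adjusted p = 3.06e-09). DNAAF5, which overlaps PRKAR1B on the opposite strand by 950 bases, stood at −0.55 ± 0.48 (SD, n = 10) and was called lower in 7 lines.

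PRKAR2A, the widely expressed type II subunit, averaged −0.08 ± 0.32 (SD, n = 10; limma adjusted p = 0.608). It was called lower in NCIH1563 (−0.63), EBC1 (−0.36) and LK2 (−0.22) in the authors' deposited table, and its highest value was 0.54 in PC9, which was not called. Lines differed by Cochran's Q (19.28, adjusted p = 0.0363), a call that ended without EBC1, NCIH1563, NCIH226, NCIH522 or PC9 (adjusted p up to 0.104). PRKAR2B, the type II subunit of fat and brain, was listed in 6 lines. The authors' deposited table has it at 1.47 in EBC1, called higher, and −0.75 in LK2, called lower, with 0.82 in NCIH1563, 0.22 in SW900, −0.13 in NCIH522 and −0.26 in NCIH520 uncalled. Its mean normalized count was 140 in EBC1 and 906 in LK2 in the authors' deposited table. The summed level of the regulatory transcripts per length had a log2 ratio of −0.12 ± 0.17 (SD, n = 10), from −0.56 in NCIH1563 to 0.05 in NCIH226. In 4 lines, NCIH226, SKMES1, NCIH1975 and PC9, it holds 3 subunits, as PRKAR2B is not listed there. Over the 6 lines that list all 4 it was −0.16 ± 0.21 (SD, n = 6), with the highest value, 0.05, in NCIH522. Of other neighbours of the members, BRD7, which overlaps ADCY7, stood at 0.09 ± 0.35 (SD, n = 10), IP6K2 near PRKAR2A at 0.09 ± 0.14 (n = 10) and AC007780.1, which overlaps PRKAR1A, at 0.03 ± 0.14 (n = 7). PRKAR2A-AS1, antisense to PRKAR2A, stood at −0.92 ± 0.78 and AC117498.2 near ADCY6 at 0.42 ± 0.28 (SD, n = 3 each), AC005736.1 near ADCY9 at 0.69 ± 0.72 (SD, n = 5), and AC147651.3, which overlaps PRKAR1B, at −0.37 in 1 line.

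Calls within lines were counted for the 8 members that did not choose the set. Of their 75 entries, 16 were called lower and 10 higher, or 34.7%, against 27.5% of all entries. Counts per line include ADCY3 and PRKACB, which chose the set, and are descriptions. Shares of all listed genes are given beside them, but the choice can raise the lower counts. LK2 had 7 members lower and 2 higher of 10 listed, where 19.5% of all its genes were called lower, 19.9% higher and 39.4% in either direction. In NCIH1563 5 of 10 were lower and 1 higher, where the shares were 24.8%, 23.3% and 48.1%. NCIH520 had 4 lower and 1 higher of 10, beside 12.3%, 11.4% and 23.8%. For SKMES1 the counts were 4 lower and 1 higher of 9, beside 15.6%, 15.8% and 31.4%. EBC1 had 3 lower and 2 higher of 9, beside 23.4%, 23% and 46.5%. SW900 had 3 lower and 2 higher of 10, beside 17.7%, 18% and 35.7%. NCIH226 had 3 lower and 1 higher of 9, beside 15.8%, 15.5% and 31.3%. The other 3 LUAD lines had 1 member lower each and 0 higher. It was ADCY3 in NCIH1975 and PC9 and PRKACB in NCIH522. All-gene shares lower, higher and in either direction were 3.58%, 4.33% and 7.91% in NCIH1975, 0.75%, 0.912% and 1.66% in NCIH522, and 1.92%, 2.56% and 4.48% in PC9. LK2 thus had the most members called, ADCY3 and PRKACB among them. The median SE of the members was 0.234 to 0.289 in these 3 lines, 0.219 in NCIH1563 and 0.088 to 0.105 in the LUSC lines, so call counts of lines are not comparable as sizes of response. Of the 6 members tested, 0 passed limma for a difference of fold change between LUAD and LUSC lines, 0 at an unadjusted p under 0.05, and 1 of the 9339 genes passed (0.0107%, 511 at an unadjusted p under 0.05).

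The levels of the subunits, which did not enter the choice of the set, were compared between the subtypes. PRKACB lay between 4.93 and 21.8 CPM per kilobase in the 6 LUSC lines, and at 3.21 in NCIH1563, 0.90 in PC9 and 0.74 in NCIH522, so the groups did not overlap. PRKAR1A ranged from 34.9 to 82.5 in LUSC lines and was 47.7 in NCIH1563, 23.0 in NCIH522, 13.2 in NCIH1975 and 12.1 in PC9. PRKACA showed the opposite order, from 13.9 to 32.8 in LUSC and from 27.4 to 45.6 in LUAD lines. PRKAR2A ranged from 9.25 to 12.4 in LUSC and from 11.7 to 20.6 in LUAD lines, the narrowest range among the members.

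On the log2 scale of CPM, LUAD minus LUSC was −2.80 for PRKACB, −1.42 for PRKAR1A, 0.85 for PRKACA and 0.43 for PRKAR2A. The exact two-sided permutation p was 0.0119 for PRKACB (n = 9, the smallest its 84 splits allow), 0.0143 for PRKAR1A, 0.019 for PRKACA and 0.00952 for PRKAR2A (n = 10 each). The adjusted permutation p was 0.0476 for all 4 over 10 members. Levels were not tested over all genes, so the share of genes with such a difference is not known. The other 6 members did not pass, with ADCY9 nearest at a difference of 1.02 (exact permutation p = 0.151, adjusted p = 0.302, n = 9). With a line left out the difference ranged from −3.45 to −2.40 for PRKACB, −1.83 to −1.17 for PRKAR1A, 0.74 to 0.99 for PRKACA and 0.27 to 0.54 for PRKAR2A. The 4 calls held without NCIH520 and ended without any other line (adjusted p up to 0.119). Fewer lines leave fewer splits. PRKACB was at the smallest exact permutation p its splits allow in every such fit, from 0.0119 to 0.0357 before adjustment. The loss of its call thus says little of stability. PRKAR1A and PRKAR2A without NCIH1563, and PRKACA without PC9, were also at the smallest possible exact permutation p, 0.0119. In the other fits where the calls of these 3 genes ended, the splits left room. Without EBC1 the exact permutation p of PRKAR1A, PRKACA and PRKAR2A was 0.0476, 0.0317 and 0.0238, where 0.00794 was the smallest possible. The number of splits thus did not force the loss of their calls there. SEs were also larger in the LUAD lines, and the subtype labels and whatever set those SEs cannot be told apart here.

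The order of levels per length varied by line. PRKAR1A was the most abundant member by its median of 44.6 CPM per kilobase, followed by PRKACA at 24.8, PRKAR1B at 11.9, PRKAR2A at 11.7, ADCY3 at 8.85, ADCY6 at 8.17, PRKACB at 6.19, ADCY7 at 5.23, ADCY9 at 2.70 and PRKAR2B at 1.67. The ranges of neighbours in this order overlapped. In NCIH1975 and PC9, PRKAR1B took the first place among regulatory subunits, with 59.0% and 60.3% of their summed level, and PRKAR1A held 19.5% and 19.3%. In the other 8 lines PRKAR1A led with shares of 43.1% to 80.4%. ADCY7 had the widest range, 33.0-fold between NCIH520 and LK2, followed by PRKACB at 29.3-fold between SKMES1 and NCIH522.

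**Figure D4:**
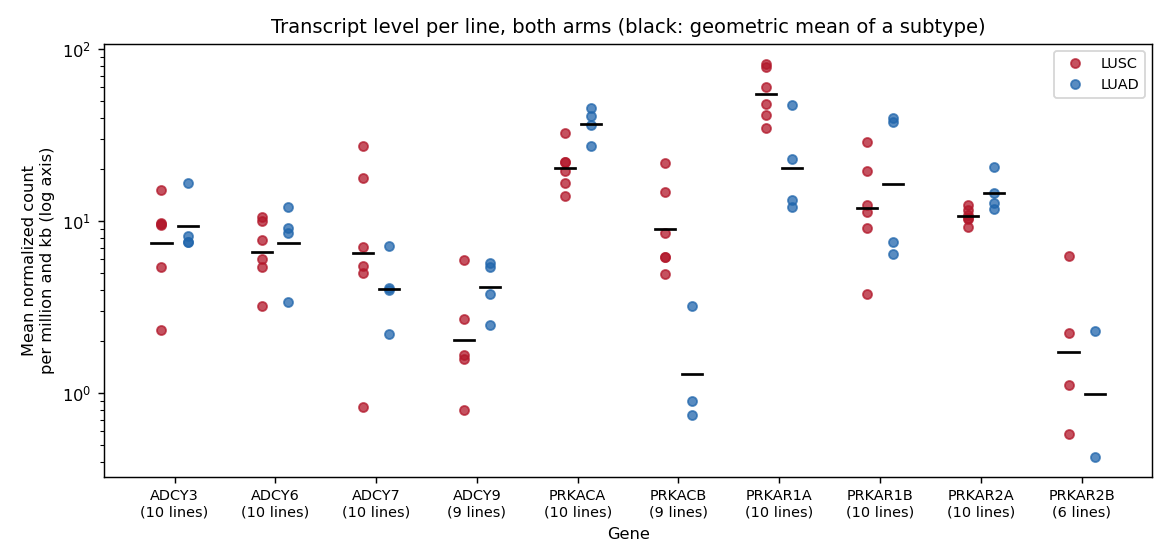
Transcript level of each gene per line over both arms, in CPM per kilobase of the longest transcript, on a log axis. Points are lines, red LUSC and blue LUAD, and black bars are geometric means. The LUSC and LUAD points of PRKACB do not overlap, and PRKAR2A has the narrowest range (9.25 to 20.6).

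Other genes of the pathway, 77 in 10 lists, were followed alongside, and 66 were listed in at least 1 line. Of the 25 with values in all 10 lines, 2 rose and 1 fell, with a median of means of 0.17, against 0.00 over all 9339 genes, of which 21.6% were called, 9.5% higher and 12.1% lower. The genes that rose were PRKX and AKAP8L, a nuclear anchoring protein gene, at 0.24 ± 0.24 (SD, n = 10; limma adjusted p = 0.0493). CREM, a CREB family modulator, fell by 0.25 ± 0.23 (SD, n = 10; limma adjusted p = 0.0368), with negative values in 10 of 10 lines. With each line left out in turn, AKAP8L passed in 2 of 10 fits (limma adjusted p from 0.0297 to 0.111), CREM in 5 of 10 (0.0392 to 0.0833) and PRKX in 10 of 10 (0.0026 to 0.0142). The remaining 7 CREB family and coactivator genes did not pass, among them CRTC1 at 0.23 (limma adjusted p = 0.051) and CREBBP at 0.33 (0.0623).

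Upstream of the cyclases, ADORA2B, a receptor for adenosine that couples to stimulatory G proteins, fell by 0.58 ± 0.47, with negative values in 8 of 9 lines (SD, n = 9; limma adjusted p = 0.0144 among genes with values in at least 7 lines). In the authors' deposited table it stood at −1.41 in LK2, −1.08 in SKMES1 and −0.74 in EBC1, the 3 calls. It passed in 9 of 9 fits that left out a line with a value (limma adjusted p from 0.00714 to 0.0381). PTGER4, a prostaglandin receptor, averaged −0.06 ± 0.71 (SD, n = 8; limma adjusted p = 0.865). GNAS, a stimulatory G protein alpha subunit, stood at 0.06 ± 0.16 (SD, n = 10; limma adjusted p = 0.519) with 0 calls, and GNAI1 and GNAI2 at 0.20 and 0.09 (limma adjusted p = 0.261 and 0.559). GNAL, another stimulatory alpha subunit, is named with its values known and was not tested. It averaged −0.53 ± 0.73 (SD, n = 6), with 3 lower calls and 1 higher, beside 13.8% and 13.7% of all entries. Of 3 phosphodiesterase and efflux genes with values in every line, 0 passed, with PDE7A at −0.24 ± 0.49 (SD, n = 10; limma adjusted p = 0.228). PDE4D and PDE4A, which degrade cyclic AMP specifically, did not pass either, at −0.27 ± 0.27 (SD, n = 7; limma adjusted p = 0.109) with 3 lower calls and at 0.20 ± 0.37 (SD, n = 8; 0.269) with 3 higher calls.

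Of the peptide inhibitors of the kinase, neither gene tested passed. PKIG stood at 0.21 ± 0.42 (SD, n = 10; limma adjusted p = 0.229) and PKIB at −0.21 ± 0.78 (SD, n = 8; 0.565). PKIA, listed in 6 lines and not tested, averaged −0.28 ± 0.22 (SD, n = 6), with negative values in 5 of 6 lines and calls in LK2 (−0.46) and SKMES1 (−0.55) in the authors' deposited table. POPDC3, of a family of cyclic AMP-binding membrane proteins, averaged −0.06 ± 0.41 (SD, n = 8; limma adjusted p = 0.804).

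Of the 5 anchoring protein genes with values in every line 1 rose, AKAP8L. AKAP7 averaged −0.36 ± 0.44, with negative values in 7 of 8 lines (SD, n = 8; limma adjusted p = 0.0971). AKAP12, a scaffold that holds the kinase near the membrane, averaged −0.54 ± 0.75 (SD, n = 8; limma adjusted p = 0.116). It was called lower in 5 lines and higher in 2, from −1.61 in NCIH1563 to 0.48 in NCIH520 in the authors' deposited table. Of 4 CREB-responsive genes with values in every line, 0 passed, with DUSP1 at 0.33 ± 0.41, JUNB at 0.61 ± 0.85 and SIK1 at 0.25 ± 0.49 (SD, n = 10; limma adjusted p = 0.0607, 0.0698 and 0.211). JUNB differed between lines (Cochran's Q adjusted p = 2.53e-71). Entries of the 10 lists were called in 29.9%, near the 27.5% of all entries.

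**Figure D5:**
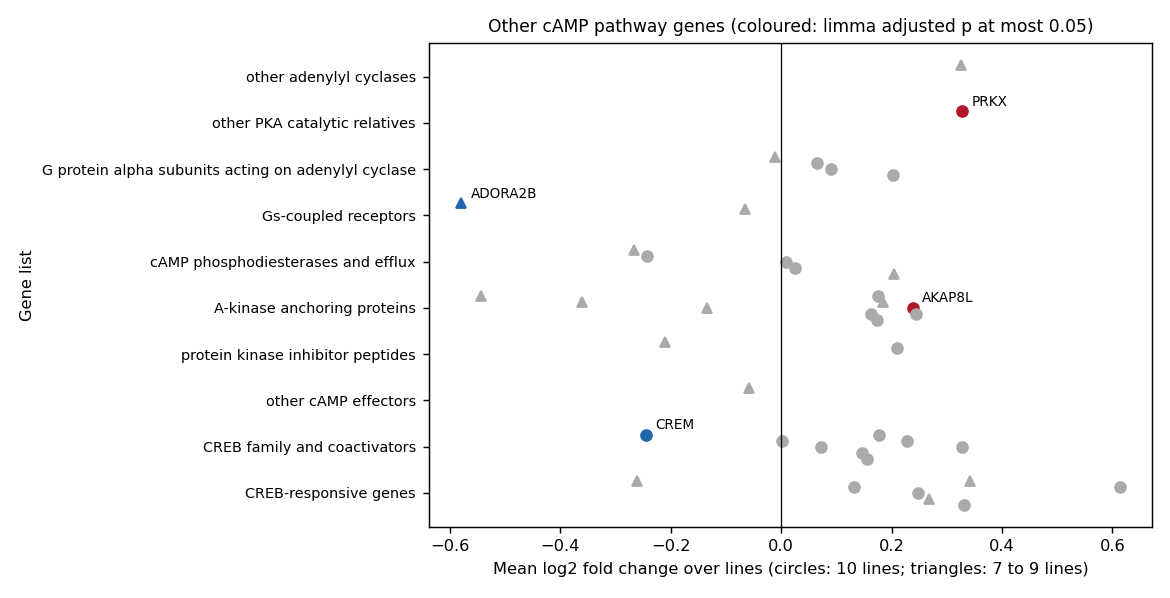
Mean log2 fold change over lines of other cyclic AMP pathway genes, by list. Circles have values in 10 lines and triangles in 7 to 9, and coloured symbols passed limma at an adjusted p of at most 0.05. The 4 coloured genes are PRKX at 0.33 and AKAP8L at 0.24, and CREM at −0.25 and ADORA2B at −0.58.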

How the data were processed

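RNA-seq libraries (40) of 10 cell lines were compared by the authors, DMSO against GSK3368712 within each line. A miRNeasy kit gave the RNA and a TruSeq Stranded mRNA kit the libraries, sequenced as paired 151-base reads, per the labels' protocols. Per the submitters' processing notes, Salmon 0.12.0, GRCh38 and DESeq2 (version not stated) were used, and per the labels genes at an FPKM of 1 or less were filtered from each comparison. The authors' deposited fold changes and SEs are log2 values, their deposited adjusted values are p-values, the deposited test statistic is a score, and the deposited mean normalized count is a signal averaged over the 4 libraries of a line. Direction (GSK3368712 over DMSO) follows the order of names in the row labels, which no value here tests. Library depth was not analysed here, and counting intervals are therefore left out.

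Members and lists were chosen with earlier results of these data known. Across lines, limma 3.58.1 in R 4.3.3 tested the mean of 9339 genes with values in all 10 lines, with Benjamini-Hochberg adjustment over all of them. The same was done for LUAD minus LUSC, and Cochran's Q used the authors' SEs. Levels (CPM) are mean normalized counts scaled to the same total in each line, divided by the longest GENCODE 29 transcript where genes are compared (99.8% of 19280 IDs matched), and were compared by exact permutation. Named genes were the members, up to 3 genes per list by smallest limma p (with values in at least 7 lines, or all genes where 4 or fewer had values), the 5 genes most like ADCY3 and PRKACB, and genes within 5000 bases of a member. On simulated data over 9339 genes, shifts of 0.5 were found across lines in 72% and shifts of 1 in 99% of changed genes, and 5% of calls were false. For subtypes a difference of 1 was found in 75% (6.99% false), and for Cochran's Q an SD of 0.5 between lines in 95.5% (1.55% false). Figures used Python 3.11.15 with matplotlib 3.10.9. Alternatives were other filters, scalings, variance models and tests, and leaving out each line. Omission of NCIH1975, NCIH522 and PC9, and the test without NCIH520, were chosen after seeing the data.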

Additional observations from a re-analysis of the deposited data

Results flagged for a closer look

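Of 56 groups of lines examined for a single distant value, 2 held one, where chance gives about 1 in 20. ADCY3 had a log2 CPM level of 6.39 in NCIH522, far above the other 3 LUAD lines, which lay close together. PRKACA had its log2 fold change of −0.38 in LK2 far below the other 5 LUSC lines. The fold changes of 4 of the 6 members tested differed between lines beyond the authors' SEs by Cochran's Q. Its values were 273.51 for ADCY7, 62.98 for PRKAR1B, 52.73 for ADCY6 and 19.28 for PRKAR2A. By the same test 65.9% of 9339 genes differed, so this count is near the share of all genes. For ADCY7 the values ran from −0.35 in SKMES1 to 2.05 in NCIH1563, and calls were made in both directions.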

How the results depend on the processing

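Across lines, 887 genes were higher and 1134 lower. Random-effects analysis gave 1698 and 2053, and the upper 75% of genes by expression 561 and 707, where fewer genes were tested. The cause of the first was not tested. Leaving out each line in turn gave 683 to 1204 higher and 880 to 1478 lower. The mean of ADCY3 stayed between −1.38 and −1.21 and that of PRKACB between −1.18 and −0.94 when a line was left out. Over all lines the authors' calls numbered 18695 lower and 18589 higher, and 3581 and 4598 when a change of 1 or more on the log2 scale, in either direction, was also required. For the members, 32 lower and 10 higher calls of 94 entries became 14 and 3, where all genes had 135786 entries. ADCY3 and PRKACB, which chose the set, held 8 and 4 of the 14. Without these genes the members had 16 lower and 10 higher calls before the larger change was required. Leaving out a line moved the count of genes differing between subtypes from 1 to between 0 and 14, and the count of members whose level differed by subtype from 4 to between 0 and 4. Without a single line, LUAD minus LUSC in level ranged from −0.0086 to 0.54 for ADCY3, −0.055 to 0.56 for ADCY6 and −2.03 to 0.40 for PRKAR2B, and in fold change from −0.17 to 0.29 for PRKAR1B, so these 4 differences have no stable sign. Random-effects analysis brought ADCY7 (adjusted p = 0.0325) and PRKAR2A (0.0419) past the threshold.

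No paired analysis was possible because the table gives 1 value per gene and line, and for the same reason no library was left out. Depth per library was not analysed here. Genes under the authors' filter have no value, so PRKACB in NCIH1975, ADCY9 in EBC1 and PRKAR2B in 4 lines say nothing of a change.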

Other observations

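Phosphodiesterase genes listed in few lines are named here with their values already known. In the authors' deposited table PDE3A stood at −1.60, PDE7B at −1.20 and PDE4B at −0.75 in NCIH1563, the single line that lists each, and all 3 were called lower, in a line where 24.8% of listed genes were called lower and 48.1% in either direction. PDE10A, listed in 5 lines, was called higher in LK2 (0.56) and lower in NCIH1563 (−0.85) in the authors' deposited table. Its uncalled values in the authors' deposited table were 0.12 in NCIH226, −0.12 in EBC1 and −0.21 in SKMES1. PDE3B, an enzyme of insulin signalling, stood at −1.11 in NCIH520, −0.84 in LK2 and −0.41 in NCIH522 in the authors' deposited table, the first 2 called. PDE8B, a phosphodiesterase of high affinity for cyclic AMP, stood at −0.81 in LK2, −0.78 in NCIH1563 and −0.20 in NCIH520 in the authors' deposited table, with calls in LK2 and NCIH520.

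Further values, also chosen once known, belong to a gene induced by cyclic AMP. PPARGC1A, a coactivator of mitochondrial genes, stood at 2.90 in LK2 and −2.18 in NCIH1563 in the authors' deposited table, each past an adjusted p of 0.05, and at −0.21 in NCIH520 and 0.06 in SW900, both uncalled.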
